A study of Rattus norvegicus with 6 samples.

Results

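The urea cycle and ammonia genes were 9 genes listed by name: Cps1, Otc, Ass1, Asl, Arg1, Nags, Slc25a15, Slc25a13 and Glud1. All 9 were found among 22093 genes measured in rat liver, each by 1 probe set, the group of array probes that is summarised as 1 value per transcript. The livers came from adult Sprague Dawley rats whose fathers had been treated before breeding with normal females. In the STZ-O group, 3 rats, the fathers were hyperglycaemic after intraperitoneal streptozotocin, which destroys the beta cells of the pancreas. In the CB-O group, also 3 rats, the fathers had received citrate buffer and had normal blood glucose. The offspring had regular chow, with no treatment of their own in the labels, and were killed in the fed state, 1 rat per litter, of an age given only as adult and with sex not distinguished. Each liver was read on 1 Affymetrix RTA-1_0 array, and the values are log2 expression after robust multi-array averaging (RMA), so a difference of 1 is a doubling.

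The urea cycle is the route by which the liver turns ammonia, released when amino acids are broken down, into urea for excretion. It begins in the mitochondria of hepatocytes, where ammonia and bicarbonate become carbamoyl phosphate and then citrulline, and it continues in the cytosol, where citrulline takes up a second nitrogen from aspartate and is cleaved stepwise to urea and ornithine. Ornithine returns to the mitochondria through a carrier, and the enzymes are concentrated in the periportal part of the liver lobule. Fasting, glucagon, glucocorticoids and dietary protein raise these enzymes in rodents, and insulin opposes that rise.

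The 6 arrays resembled each other closely, with a Pearson r across genes of 0.991 to 0.995 for any pair and column medians between 5.77 and 5.82. Liver identity was checked on a list of hepatocyte markers, of which 7 of 8 were measured. Their mean level was 11.31 to 11.38 in STZ-O livers, against 11.43 to 11.45 in CB-O livers. The Y-linked gene Ddx3y read 9.36 to 9.44 in STZ-O livers, against 9.22 to 9.67 in CB-O livers, so no array lacked its signal. All 9 urea cycle genes averaged above 8.26, the 95th percentile of the negative control probe sets. Ddx3y was the brightest of 5 measured Y-linked genes, of which 3 averaged under that percentile.

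Ass1, which joins citrulline to aspartate, was lower on every STZ-O array than on any CB-O array, with a difference of -0.34 on the log2 scale. Slc25a13, the carrier that exports the aspartate, was higher on every STZ-O array than on any CB-O array, with a difference of 0.16. The other cytosolic enzymes, Asl and Arg1, had differences of -0.30 and -0.24, but their groups overlapped and without CB-O replicate 2 the differences were -0.16 and -0.096. The mitochondrial enzymes, whose groups also overlapped, had differences of -0.18 for Nags, -0.070 for Cps1 and -0.084 for Otc. Groups that did not overlap were thus seen for 2 of the 9 genes, and for 10.1% of all genes. None of the 9 differences passed the limma threshold of 0.05 after adjustment, and neither did any other gene: 0% of 22093 were called, with 0.0789 as the lowest adjusted p. At an unadjusted p under 0.05 stood 2 of the 9 genes, Ass1 lower and Slc25a13 higher, where 5.68% of all genes did (3.2% higher and 2.48% lower). This count was 1 without STZ-O replicate 3 (Ass1) and 4 without CB-O replicate 3 (Ass1, Asl, Arg1 and Nags). Over all 22093 genes the like counts were 1162 and 1262. In bulk liver RNA, fewer cells of a type and less RNA per cell cannot be told apart.

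**Figure D1:**
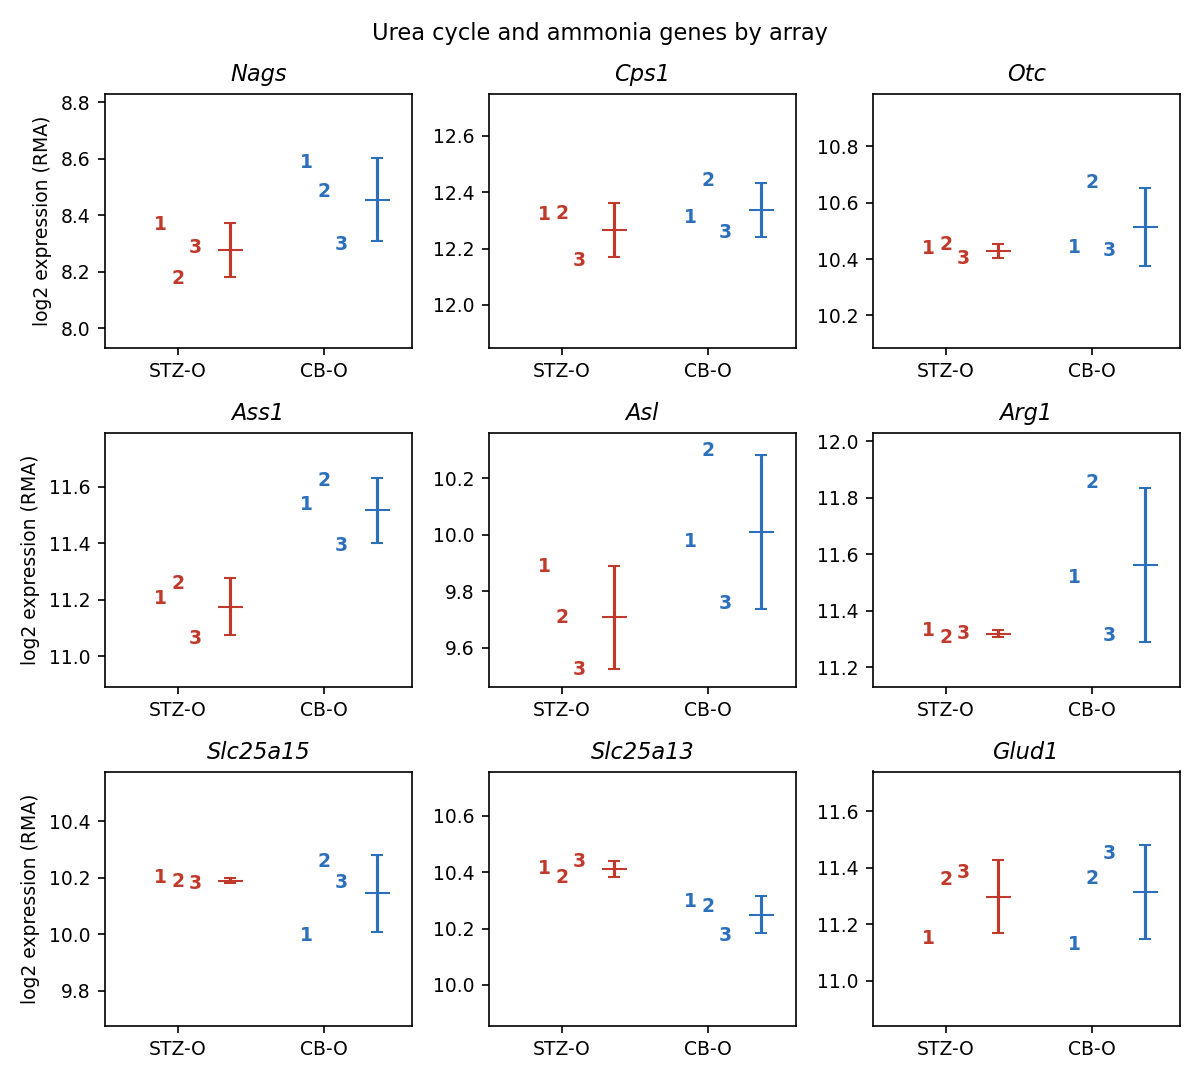
Log2 expression (RMA) of the 9 genes in each liver, with the STZ-O arrays left of the CB-O arrays; each digit is 1 array (its replicate number), the dash and bar are the mean and SD of 3 arrays, and every panel spans the same log2 range. The groups do not overlap for Ass1, lower in STZ-O, and Slc25a13, higher in STZ-O; for the other 7 genes they overlap.

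Nags makes N-acetylglutamate, the obligatory activator of carbamoyl phosphate synthetase. It read 8.37, 8.18 and 8.28 in STZ-O livers, against 8.59, 8.48 and 8.30 in CB-O livers. The groups overlapped, because CB-O replicate 3 lay among the STZ-O values. The difference was -0.18 ± 0.089 (SE), with a 95% interval of -0.38 to 0.03 (limma adjusted p = 0.908). Nags averaged 8.37, just above the 95th percentile of negative controls (8.26), and STZ-O replicate 2 lay below that percentile.

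Cps1 encodes carbamoyl phosphate synthetase 1, the abundant mitochondrial enzyme that takes ammonia into the cycle. It read 12.32, 12.32 and 12.16 in STZ-O livers, against 12.31, 12.44 and 12.26 in CB-O livers. The groups overlapped, with STZ-O replicate 3 below all CB-O livers and CB-O replicate 2 above all STZ-O livers. The difference was -0.070 ± 0.075 (SE), or -4.74% as a point estimate, with a 95% interval of -15.6% to 7.52% (limma adjusted p = 0.988).

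Otc, the X-linked gene of ornithine transcarbamylase, makes citrulline from carbamoyl phosphate and ornithine. It read 10.44, 10.45 and 10.40 in STZ-O livers, against 10.44, 10.67 and 10.43 in CB-O livers. Of the 6 livers 5 lay within 0.05 of each other and CB-O replicate 2 stood above them. The difference of -0.084 ± 0.077 (SE) was -0.005 without that array (limma adjusted p = 0.984 on all arrays).

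Ass1 encodes argininosuccinate synthase, which joins citrulline and aspartate and so brings in the second nitrogen. It read 11.20, 11.26 and 11.06 in STZ-O livers, against 11.53, 11.62 and 11.39 in CB-O livers. All STZ-O livers lay below all CB-O livers, with a gap of 0.135 between the nearest arrays. The group means were 11.17 ± 0.10 in STZ-O and 11.52 ± 0.12 in CB-O (SD, n = 3 each). The difference was -0.34 ± 0.081 (SE), or -21.1% in STZ-O, with a 95% interval of -30.8% to -10.1%. It ranked 121 of 22093 genes by p (limma unadjusted p = 0.00318) and did not pass adjustment (adjusted p = 0.578). With 1 array left out it stayed between -0.40 and -0.29, and its unadjusted p was under 0.05 in all 16 alternative settings, with adjusted p-values of 0.45 to 0.909. The share of all genes with every STZ-O array below every CB-O array was 4.93%.

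A pseudogene of Ass1, Ass1-ps2, has a probe set of its own on the array. It read 7.98, 7.98 and 7.65 in STZ-O livers, against 8.45, 8.52 and 8.22 in CB-O livers. These groups did not overlap either, and replicate 3 was the lowest in each, as it was for Ass1. Replicate 2 was the highest in CB-O, also as for Ass1, while STZ-O replicates 1 and 2 both read 7.98. The difference was -0.52 ± 0.12 (SE; limma adjusted p = 0.532), and with 1 array left out it lay between -0.61 and -0.41. Ass1-ps2 averaged 8.13, under the 95th percentile of negative controls (8.26). A pseudogene copy and its parent gene can hybridise to each other's probes, and whether these probe sets share signal was not tested, so the values are not counted as a second measurement. The probe set of Slc25a15-ps1, the like copy of the ornithine carrier gene, averaged 5.79, with the negative control median at 5.51, and differed by 0.002 ± 0.078.

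Asl encodes argininosuccinate lyase, which splits argininosuccinate into arginine and fumarate. It read 9.89, 9.71 and 9.53 in STZ-O livers, against 9.98, 10.30 and 9.76 in CB-O livers. The groups overlapped, since CB-O replicate 3 lay below STZ-O replicate 1. The difference was -0.30 ± 0.15 (SE; limma adjusted p = 0.906). It was -0.16 without CB-O replicate 2, the highest liver, and -0.43 without CB-O replicate 3.

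Arg1, liver arginase, cleaves arginine to urea and ornithine and closes the cycle. It read 11.33, 11.31 and 11.32 on the STZ-O arrays, with an SD of 0.012. The CB-O arrays read 11.52, 11.86 and 11.31, with an SD of 0.27. The STZ-O livers were thus nearly identical, and the lowest CB-O liver lay at their level. The difference was -0.24 ± 0.12 (SE; limma adjusted p = 0.915), and without CB-O replicate 2 it was -0.096, so much of it rested on that liver.

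Slc25a15 encodes the mitochondrial carrier that exchanges citrulline for ornithine. It read 10.20, 10.19 and 10.18 in STZ-O livers, against 10.00, 10.26 and 10.18 in CB-O livers. The STZ-O values lay inside the CB-O range. The difference was 0.045 ± 0.076 (SE; limma adjusted p = 0.990), and it was -0.030 without CB-O replicate 1.

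Slc25a13 encodes citrin, the calcium-regulated carrier that moves aspartate out of the mitochondria in exchange for glutamate and so supplies argininosuccinate synthase. It read 10.41, 10.38 and 10.44 in STZ-O livers, against 10.30, 10.28 and 10.17 in CB-O livers. All STZ-O livers lay above all CB-O livers, by 0.0835 between the nearest arrays, and the share of all genes with that pattern was 5.2%. The difference was 0.16 ± 0.059 (SE), or 11.8% higher in STZ-O, with a 95% interval from 1.73% to 22.9% higher. It did not pass adjustment (limma adjusted p = 0.821), and its unadjusted p of 0.0262 was under 0.05 in 11 of 16 alternative settings. Its paralog Slc25a12, the aspartate and glutamate carrier typical of muscle and brain, differed by -0.072 ± 0.077, and by 0.002 without CB-O replicate 1. Slc25a12 averaged 7.86, under the 95th percentile of negative controls.

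Glud1, glutamate dehydrogenase, releases ammonia from glutamate in the mitochondria. It read 11.15, 11.36 and 11.39 in STZ-O livers, against 11.13, 11.36 and 11.45 in CB-O livers. In each group replicate 1 was lowest, and the groups covered the same range. The difference was -0.017 ± 0.10 (SE; limma adjusted p = 0.995), and its sign turned in 4 of 16 alternative settings.

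**Figure D2:**
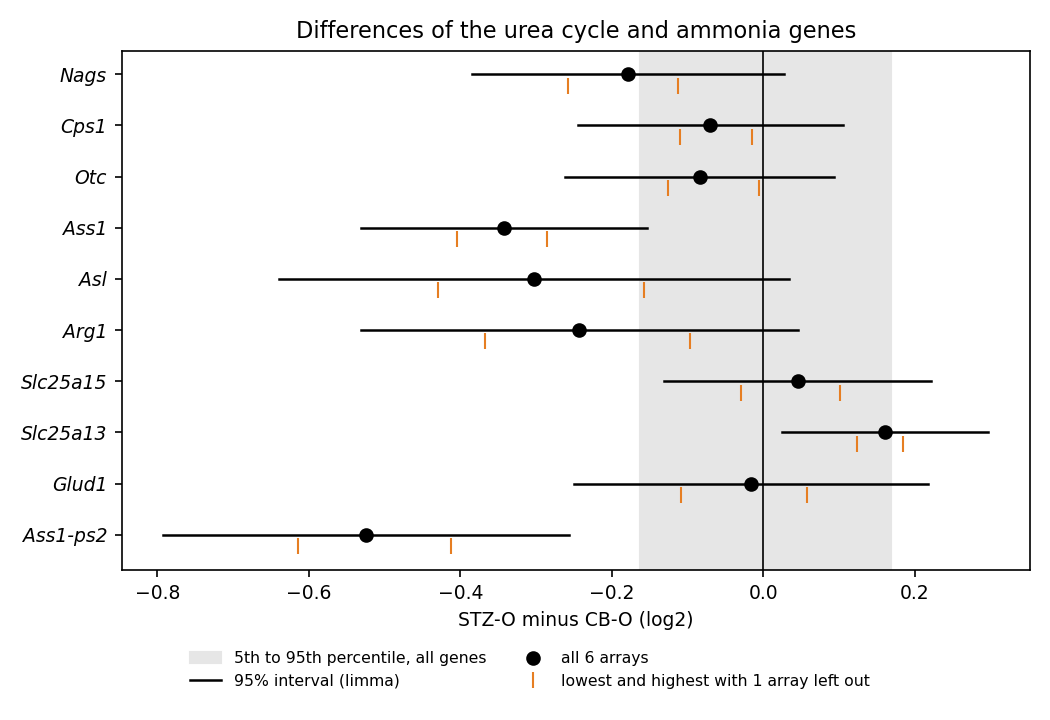
STZ-O minus CB-O difference (log2) of the 9 genes and of Ass1-ps2, with 95% limma intervals as lines, the lowest and highest value with 1 array left out as orange ticks, and the 5th to 95th percentile of all 22093 genes (-0.16 to 0.17) shaded. The intervals of Ass1, Slc25a13 and Ass1-ps2 do not reach 0, and no difference passed adjustment over all genes. Ass1-ps2 averaged under the 95th percentile of negative controls.

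Set side by side, 7 of the 9 genes had a difference below 0, as did 51.9% of all genes, and the median was -0.084 for the 9 genes and -0.004 for all genes. By place in the cycle the 3 cytosolic enzymes had a median of -0.30, the 3 mitochondrial enzymes -0.084 and the 2 carriers 0.10. Individual livers shared part of this pattern across genes. CB-O replicate 2 was the highest of the 6 arrays for Cps1, Otc, Ass1, Asl, Arg1 and Slc25a15. STZ-O replicate 3 was the lowest for Cps1, Otc, Ass1 and Asl. Averaged over Ass1, Asl and Arg1, the deviation from the 6-array mean was -0.074, -0.12 and -0.25 in STZ-O livers, against 0.13, 0.38 and -0.061 in CB-O livers. STZ-O replicate 1 and CB-O replicate 3 thus lay close together.

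**Figure D3:**
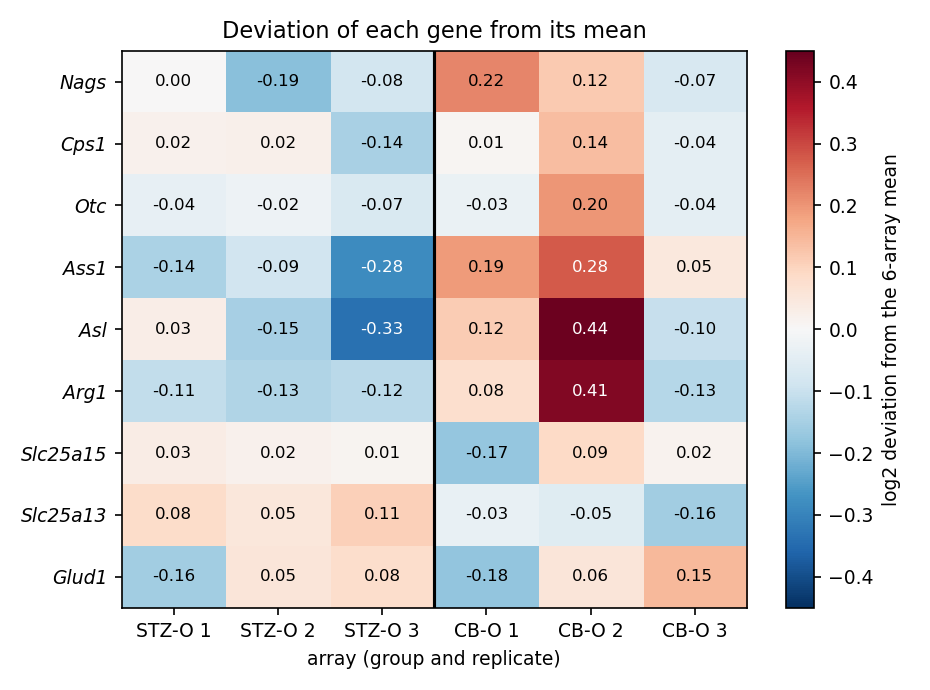
Deviation of each gene from its own mean over 6 arrays (log2; red above and blue below the mean), with STZ-O arrays left and CB-O arrays right of the line. CB-O replicate 2 stands out for Asl (0.44) and Arg1 (0.41), and STZ-O replicate 3 for Asl (-0.33) and Ass1 (-0.28).

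The 3 cytosolic enzymes were also set against Cps1 on the same array. The value of Ass1 minus that of Cps1 was -1.12, -1.07 and -1.09 in STZ-O livers, against -0.77, -0.82 and -0.87 in CB-O livers. The spread within a group narrowed to an SD of 0.025 in STZ-O and 0.045 in CB-O, and the groups differed by -0.27. This pair was chosen after its values were seen, so it has no test, and the offset between the probe sets, unlike its change between livers, has no meaning as a level. The like values for Asl were -2.43, -2.61 and -2.63 in STZ-O and -2.33, -2.14 and -2.50 in CB-O, and those for Arg1 were -0.99, -1.02 and -0.84 in STZ-O and -0.79, -0.59 and -0.94 in CB-O. The groups overlapped for both. For Slc25a13 minus Cps1 the groups did not overlap, with a difference of 0.23 that has no test either. Its SD in STZ-O widened from 0.029 to 0.12.

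Upstream sequence is shown for Ass1 and Slc25a13, whose groups did not overlap, and for Asl, the enzyme next to Ass1. RefSeq promoter windows, 250 bases before to 50 after the annotated gene start in build GRCr8, were available for 8 of the 9 genes. The window of Ass1 is chr3:35149480-35149779 on the plus strand, that of Asl chr12:32295658-32295957 on the plus strand and that of Slc25a13 chr4:35328311-35328610 on the minus strand. Capitals mark matches on either strand to GGGCGG (the GC box), TATAAA (the TATA box), TGACG (the half-site of the cyclic AMP response element), AGGTCA (a nuclear receptor half-site) or TTNNGNAA (a loose form of the C/EBP site).
Ass1: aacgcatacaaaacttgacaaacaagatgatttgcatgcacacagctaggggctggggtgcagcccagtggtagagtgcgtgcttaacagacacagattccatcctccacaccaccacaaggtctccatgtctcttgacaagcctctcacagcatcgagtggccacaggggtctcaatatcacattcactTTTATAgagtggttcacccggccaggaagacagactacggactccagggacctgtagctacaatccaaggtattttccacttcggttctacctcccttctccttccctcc
Asl: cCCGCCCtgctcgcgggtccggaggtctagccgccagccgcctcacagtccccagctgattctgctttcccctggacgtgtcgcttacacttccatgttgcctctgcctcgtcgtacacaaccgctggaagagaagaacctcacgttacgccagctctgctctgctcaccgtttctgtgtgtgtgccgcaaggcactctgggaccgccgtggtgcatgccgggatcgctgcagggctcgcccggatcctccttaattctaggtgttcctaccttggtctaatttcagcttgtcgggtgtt
Slc25a13: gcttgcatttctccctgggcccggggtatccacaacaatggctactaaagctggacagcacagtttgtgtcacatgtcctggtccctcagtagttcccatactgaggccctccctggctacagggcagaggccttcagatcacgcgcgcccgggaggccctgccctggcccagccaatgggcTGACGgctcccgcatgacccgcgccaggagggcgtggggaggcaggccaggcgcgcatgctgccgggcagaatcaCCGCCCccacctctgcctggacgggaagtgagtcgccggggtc
The Ass1 window held 1 match, to the TATA box on the minus strand 60 bases before the start. The Asl window held 1 GC box at its far end, and the Slc25a13 window 1 GC box after the start and 1 cyclic AMP half-site 68 bases before it. The windows differed in base composition, with 51% G and C in Ass1, 60.3% in Asl and 66.3% in Slc25a13. None of the matches overlapped another. Of 33469 rat promoter windows of the same length, 33.1% held the GC box, 14.2% the TATA box, 21.2% the cyclic AMP half-site, 16.2% the nuclear receptor half-site and 41.3% the C/EBP form.

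Genes that hand nitrogen to the cycle or take its intermediates away were counted by list. In the list of glutamine and ammonia handling, 9 of 13 measured genes were lower in STZ-O and 4 higher, with a median of -0.085, and 0 had a limma unadjusted p under 0.05. Of the 13 genes, 7 averaged under the 95th percentile of negative controls. Gls2, the periportal liver glutaminase that feeds ammonia to Cps1, had the smallest p of the list. It averaged 9.20 ± 0.25 in STZ-O and 9.55 ± 0.24 in CB-O (SD, n = 3 each), a difference of -0.34 ± 0.15 (SE; adjusted p = 0.888) that was -0.22 without STZ-O replicate 2. The sodium-coupled amino acid transporter gene Slc38a2 differed by -0.22 ± 0.11, and by -0.096 without CB-O replicate 3. The pericentral genes of ammonia capture had the values -0.17 ± 0.13 for Glul, glutamine synthetase, and -0.27 ± 0.20 for Slc1a2, a glutamate transporter. Without STZ-O replicate 2 Slc1a2 differed by -0.047 and Glul by -0.039. Slc38a3, a glutamine transporter, differed by -0.18 ± 0.17, and by -0.016 without STZ-O replicate 3. The gene of mitochondrial carbonic anhydrase 5A, Car5a, which supplies bicarbonate to Cps1, differed by 0.13 ± 0.11, and by 0.037 without CB-O replicate 3, at a mean of 7.56 that lies under the 95th percentile of negative controls.

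Among 25 measured genes of amino acid breakdown, the median difference was 0.020, with 16 higher and 9 lower in STZ-O. Of the 25 genes, 5 averaged under the 95th percentile of negative controls. Prodh, the mitochondrial proline dehydrogenase, was the 1 gene of that list with a limma unadjusted p under 0.05. It read 9.50, 9.13 and 9.52 in STZ-O livers, against 9.64, 9.92 and 9.58 in CB-O livers. The groups did not overlap, by a margin of 0.063 on the log2 scale, and the difference of -0.33 ± 0.13 (SE; adjusted p = 0.843) was -0.20 without STZ-O replicate 2. Cth, which breaks cystathionine to cysteine and ammonia, differed by 0.11 ± 0.084, the asparaginase gene Aspg by -0.095 ± 0.068, and the alanine aminotransferase gene Gpt by -0.11 ± 0.16. Leaving out 1 array moved all of them: Cth was 0.022 without CB-O replicate 3, Aspg -0.045 without STZ-O replicate 3 and Gpt 0.032 without STZ-O replicate 2.

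In the list of arginine and ornithine use, 7 of 14 genes were higher and 7 lower. Their median was -0.004, with 0 at an unadjusted p under 0.05 in limma. Of the 14 genes, 8 averaged under the 95th percentile of negative controls. Oat, the ornithine aminotransferase gene, read 8.93, 8.04 and 8.64 in STZ-O livers, against 8.40, 9.30 and 8.47 in CB-O livers. The groups overlapped over most of that range, with a difference of -0.19 ± 0.28 (SE). Leaving out replicate 2 turned its sign, to 0.056 when it was the STZ-O array and 0.095 when it was the CB-O array. The urea transporter gene Slc14a1 differed by -0.10 ± 0.074, Gamt of creatine synthesis by 0.082 ± 0.072 and the basic amino acid carrier gene Slc25a29 by 0.081 ± 0.073. These were -0.059 for Slc14a1 and 0.026 for Slc25a29 without STZ-O replicate 1, and 0.024 for Gamt without CB-O replicate 3. Slc14a1, at a mean of 6.16, and Slc25a29, at 6.28, lay under the 95th percentile of negative controls. Arg2, the mitochondrial arginase of tissues outside the liver, averaged 5.35, below the negative control median of 5.51, and no difference is given for it.

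Of 9 measured genes of aspartate and fumarate recycling 5 were higher and 4 lower. Their median was 0.032, with 0 at an unadjusted p under 0.05 in limma. Of the 9 genes, 2 averaged under the 95th percentile of negative controls. The cytosolic and mitochondrial aspartate aminotransferase genes Got1 and Got2 differed by -0.16 ± 0.16 and 0.060 ± 0.057 (SE), and Got1 by 0.005 without CB-O replicate 2. Slc25a22, a mitochondrial glutamate carrier, differed by -0.23 ± 0.16, Adss2 of the purine nucleotide cycle by 0.12 ± 0.073 and the malate dehydrogenase gene Mdh2 by 0.11 ± 0.091. Leaving out 1 array brought Slc25a22 to -0.11 (STZ-O replicate 3), Adss2 to 0.053 (CB-O replicate 1) and Mdh2 to 0.039 (CB-O replicate 2). The route that uses carbamoyl phosphate for pyrimidines had 3 of 3 genes lower and none at a limma unadjusted p under 0.05. The differences were -0.10 ± 0.070 for Cad, -0.12 ± 0.071 for Dhodh and -0.020 ± 0.086 for Umps. All 3 averaged under the 95th percentile of negative controls.

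**Figure D4:**
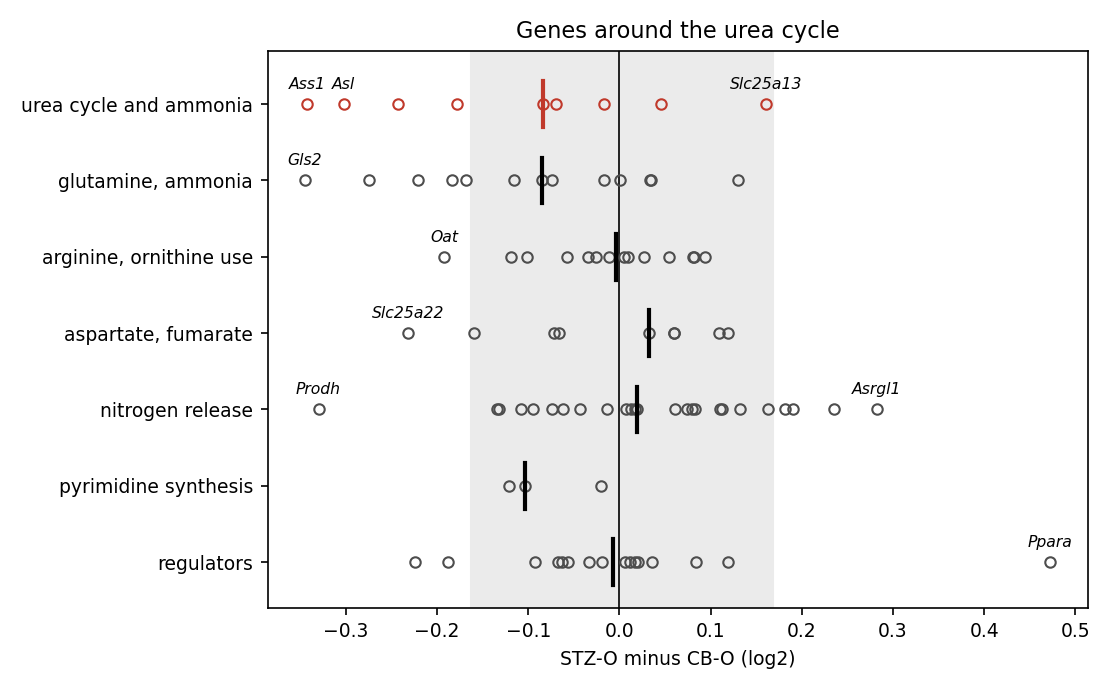
STZ-O minus CB-O difference (log2) of each measured gene, by list, with the median of a list as a vertical bar and the 5th to 95th percentile of all genes shaded; the 9 urea cycle and ammonia genes are in red. List medians lie between -0.10 and 0.032, and Ass1, Gls2 and Prodh reach similar negative values in different lists.

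For 16 measured genes listed as regulators of the cycle, the median difference was -0.007, with 8 higher and 8 lower in STZ-O. Of the 16 genes, 7 averaged under the 95th percentile of negative controls. Ppara, the fatty acid-activated nuclear receptor, differed by 0.47 ± 0.11 (SE; limma adjusted p = 0.570), with all STZ-O arrays above all CB-O arrays. It was the 1 gene of the list with a limma unadjusted p under 0.05, and with 1 array left out it differed by 0.39 to 0.58. Hnf4a, which drives hepatocyte genes including those of the cycle, differed by -0.19 ± 0.11 and by -0.083 without STZ-O replicate 3. Foxa1, a pioneer factor of liver genes, differed by -0.22 ± 0.15 and by -0.037 without CB-O replicate 3. Cebpa, whose loss lowers urea cycle enzymes in mice, differed by 0.006 ± 0.083, and the glucagon receptor gene Gcgr by 0.021 ± 0.056.

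The enzymes of the cycle are periportal, and other zone markers were set beside them. Of 7 other periportal markers 4 were lower and 3 higher in STZ-O, with a median of -0.007. Their mean level was 9.31 to 9.62 in STZ-O livers, against 9.29 to 9.62 in CB-O livers, and 2 of the 7 averaged under the 95th percentile of negative controls. Pericentral markers were lower for 6 of 9 genes, with a median of -0.17. Their mean level was 8.50 to 8.83 in STZ-O livers, against 8.75 to 8.95 in CB-O livers, and 4 of the 9 averaged under that percentile. Lgr5 among them, a receptor marking cells around the central vein, differed by -0.25 ± 0.072 (SE; limma adjusted p = 0.708) at a mean of 5.68, under the 95th percentile of negative controls. Of the hepatocyte markers 5 of 7 were lower, with a median of -0.051. Serpina1, an alpha-1-antitrypsin gene, differed by -0.38 ± 0.11 (SE; limma adjusted p = 0.709), at a mean of 7.84 that also lies under that percentile. Alb, albumin, differed by 0.040 ± 0.055 and Ttr, transthyretin, by 0.077 ± 0.053, with all STZ-O arrays of Ttr above all CB-O arrays. The mean marker level given above did not overlap between groups, but over the 6 markers other than Serpina1 it was 11.91 to 12.01 in STZ-O livers, against 11.96 to 12.04 in CB-O livers, which overlap. This second mean was added after seeing the data.

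Markers of other cells were also measured. Kupffer cell markers were higher for 6 of 8 genes (mean level 7.86 to 8.50 in STZ-O and 8.21 to 8.27 in CB-O), and endothelial markers lower for 8 of 8 (8.16 to 8.69 in STZ-O and 8.60 to 8.82 in CB-O). The lowest value of each was STZ-O replicate 3, the array that was also lowest for Ass1. Without that array Ass1 differed by -0.29, and the part of these markers in its difference was not tested. Stab2, an endothelial scavenger receptor gene, differed by -0.18 ± 0.074 (SE; limma adjusted p = 0.863), and its groups did not overlap. Its mean of 7.91 lies under the 95th percentile of negative controls. Stellate cell markers were lower for 5 of 8 genes (7.39 to 7.56 in STZ-O and 7.43 to 7.62 in CB-O), bile duct markers for 3 of 6 (6.29 to 6.38 in STZ-O and 6.26 to 6.37 in CB-O) and leukocyte markers for 2 of 7 (6.01 to 6.16 in STZ-O and 5.93 to 6.09 in CB-O). Red cell markers were lower for 4 of 4 genes (7.60 to 7.78 in STZ-O and 7.74 to 7.98 in CB-O). Ptprc, the CD45 gene of leukocytes, differed by 0.32 ± 0.082 (SE; limma adjusted p = 0.651), with all STZ-O arrays above all CB-O arrays. Under the 95th percentile of negative controls lay 3 of 4 red cell, 4 of 8 Kupffer and 3 of 8 endothelial markers. So did all 7 leukocyte markers, all 6 bile duct markers and 7 of 8 stellate markers. The same held for all 7 measured markers of kidney and gut, organs that hold some of the same enzymes. Of the last, the intestinal fatty acid-binding protein gene Fabp2 differed by 0.63 ± 0.23 (SE; limma adjusted p = 0.836).

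By distance between profiles centred on their means over 6 arrays, the genes most like the average of Cps1, Otc, Ass1, Asl and Arg1 were Dclre1a (root mean square distance 0.039), Abcb1a (0.042), Deptor (0.049), Fam149a (0.049) and Eif4a1-ps8 (0.049), out of 2902 genes brighter than the 95th percentile of negative controls. The average profile was -0.048, -0.074 and -0.19 in STZ-O livers, against 0.072, 0.30 and -0.054 in CB-O livers. The ranking rests on 6 arrays and is a description.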

How the data were processed

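The deposited table held 70580 probe sets on 6 arrays as log2 values, made by the authors, per the submitters' processing notes, with Affymetrix Expression Console 1.4.1 and RMA. RMA subtracts background, gives all arrays the same distribution of values and summarises the probes of a set, which compresses differences of dim probe sets. The genome build behind the probe sets is not given in the sources used here. Scanner intensities were not used.

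Control probe sets (1738) were left out. Of the 68842 others, 23446 had 1 gene symbol and 505 had several in the platform annotation. Each of 22093 genes was represented by its brightest single-symbol probe set over 6 arrays. Differences, STZ-O minus CB-O, were tested two-sided on every gene by lmFit and eBayes of limma 3.58.1 (R 4.3.3) and adjusted by Benjamini-Hochberg over all of them, with 0.05 as threshold; the code was tested on simulated data. Errors beside differences are moderated standard errors, and intervals are at 95%. The number of arrays, 3 per group with 1 animal each, limits the precision. Named genes were the 9 members, the 3 genes with the smallest p in each other pathway list, 13 genes fixed by name, and the 5 nearest in profile; other genes named were chosen after their values were seen. The members and lists were chosen with earlier results of these data known. Same-numbered replicates were not paired in the labels. For a gene outside the 9, a single value with 1 array left out is the one moved furthest towards or past 0. Leaving out other arrays moved differences the other way, to -0.48 for Gls2 (CB-O replicate 3) and -0.40 for Prodh (STZ-O replicate 3). Alternatives left out each array, blocked on replicate number, or changed variance model, weights, moderation, scaling, dim-gene filter, probe set choice, adjustment set or covariate (the mean Y-linked level).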

Additional observations from a re-analysis of the deposited data

How the results depend on the processing

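Ass1, Asl, Arg1, Nags, Cps1 and Otc stayed below 0 and Slc25a13 above 0 in all 16 alternatives, and none of the 9 genes passed adjustment in any. With 1 array left out the differences ranged from -0.40 to -0.29 for Ass1, -0.43 to -0.16 for Asl, -0.37 to -0.096 for Arg1, -0.26 to -0.11 for Nags, -0.11 to -0.015 for Cps1, -0.13 to -0.005 for Otc, 0.12 to 0.18 for Slc25a13, -0.030 to 0.10 for Slc25a15 and -0.11 to 0.057 for Glud1. Slc25a15 was negative (-0.030) without CB-O replicate 1. Glud1 was positive at 0.057 without STZ-O replicate 1, at 0.007 without CB-O replicate 2 and at 0.052 without CB-O replicate 3, and when quantile normalized again (0.030). The cause was not tested.

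The number of these genes at a limma unadjusted p under 0.05 was 2 on all arrays and 1 to 4 with 1 array left out. It was 4 after renewed quantile normalization, 4 with the Y-linked level as covariate and 1 in the fit over all probe sets. Of all 22093 genes, 1162 to 1326 had such a p with 1 array left out, 1293 after quantile normalization and 1385 with the covariate. The Y-linked level, with 3 of its 5 genes under the 95th percentile of negative controls, was highest on CB-O replicate 2 (7.54). That array was also highest for Cps1, Otc, Ass1, Asl, Arg1 and Slc25a15, and its part in the count was not tested. Over all genes, 0 passed adjustment on all arrays, 0 to 1 with 1 array left out and 2 with variances fitted robustly on intensity; 175 of 2911 genes had an unadjusted p under 0.05 without the dim ones and 3678 of 68842 probe sets did, the number tested being different.

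With the replicate block, Ass1 differed by -0.34 ± 0.061 (SE; limma adjusted p = 0.492) and 1310 genes had an unadjusted p under 0.05, against 1255 without it. The pair of urea cycle genes at an unadjusted p under 0.05 was then Ass1 and Asl (limma adjusted p = 0.776 for Asl), and Slc25a13 was no longer among them (adjusted p = 0.852). Deviations of same-numbered arrays from their group means correlated across genes at 0.146, -0.175 and 0.10, and those of the other pairs at -0.225 to 0.13. These values cannot settle whether the samples were paired, because deviations from a mean of 3 arrays depend on each other within a group. The small number of arrays limits all of these values.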
